A study of Mus musculus with 4 samples.

Results

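The control of epithelial cell identity was examined through 10 transcription factor genes of the urothelium and of squamous epithelia, *Grhl1*, *Grhl2*, *Grhl3*, *Gata3*, *Foxa1*, *Elf3*, *Klf4*, *Klf5*, *Trp63* and *Ehf*. All non-control probes carrying one of these names on the array were taken, which gave 15 probes for 10 of the 29924 gene names. All 15 probes were well above background in all 8 pools. RNA came from ureters explanted at postnatal day 0 and cultured for 8 days. Control ureters carried floxed *Pparg* alleles without cre (labelled Pparg (fl/?)), and *Pparg-cKO* ureters carried Pax2-cre/+; Pparg (fl/fl). Both genotypes were treated with the vehicle DMSO or with 2 µM purmorphamine, an agonist of the SHH signal transducer Smoothened, so that 4 groups of 2 pools were obtained. In each group replicate 1 was a male and replicate 2 a female pool, and the number of ureters per pool is not given in the sources used here.

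Pax2-cre acts in the nephric duct and its derivatives, the ureteric epithelium and the collecting ducts, so the deletion is directed to the epithelium and not to the surrounding mesenchyme. The recombined allele still gives rise to a transcript, and the *Pparg* probe therefore does not check the genotype. Each array carried the vehicle and the agonist pool of the same genotype and sex. The dyes were swapped from replicate 1 to replicate 2, so that sex and dye orientation cannot be told apart. All 4 arrays lay on 1 slide. Whole ureters were used, and epithelial markers (6 of 6), smooth muscle markers (4 of 4), fibroblast markers (4 of 4) and leukocyte markers (4 of 4) were well above background in all pools. Of the 4 kidney tubule markers only 1 was. The female *Pparg-cKO* pool with DMSO stood apart in genes of cornifying epithelium, with 14.46 for *Krt1* against 7.25 in the male pool and 15.69 for *Lor* against 9.93, and the results for such genes are also given without it. Levels are given as normalized intensities on the log2 scale, on which a difference of 1 is a doubling. They compare pools for 1 probe and not 1 gene with another.

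The urothelium is built from basal, intermediate and superficial cells. p63, the product of *Trp63*, marks basal and intermediate cells and is needed for stratified epithelia. PPARG acts together with GATA3 and FOXA1 in the differentiation of luminal urothelial cells, and ELF3 acts downstream of it. Grainyhead-like factors bind DNA as dimers and control cell junctions and barrier formation, and GRHL3 is known for its part in the terminal differentiation of superficial cells and of the epidermis. KLF4 and KLF5 are zinc finger factors of barrier and proliferating epithelia, respectively, and EHF is an ETS factor of epithelial cells. SHH is made by the urothelium and signals to the mesenchyme, which in turn acts back on the epithelium.

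The 60-base probes decide what was measured for a gene, and those of the genes on which the results turn are given here, 5′ to 3′, for *Trp63*, *Grhl3* and, with a second probe placed upstream of the brightest one, *Grhl2* and *Ehf*. Of the other probes the first 30 bases are shown. Capitals mark a run of 6 CAG triplets.
*Trp63*, brightest probe (first 30 bases): caaaaggtactttcttatagacatgatact
*Trp63*, CAG probe: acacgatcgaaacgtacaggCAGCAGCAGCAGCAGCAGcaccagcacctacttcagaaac
*Grhl3* (first 30 bases): ggaacaaatacccttgccacctactgttgt
*Grhl2*, upstream probe: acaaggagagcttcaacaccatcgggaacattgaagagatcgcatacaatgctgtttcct
*Ehf*, upstream probe: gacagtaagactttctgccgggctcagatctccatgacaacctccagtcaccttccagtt
The brightest *Trp63* probe (A_51_P216550, chr16:25892012-25892071 of mm9, plus strand) starts at base 4526 of its transcript, and 4 RefSeq transcripts are listed for it. The CAG probe of *Trp63* (A_55_P2161055, chr16:25871159-25871218, plus strand) starts at base 1801, and 3 RefSeq transcripts are listed for it. The listings share no transcript but may be incomplete, so that they do not show which isoforms each probe reads. The *Grhl3* probe (A_55_P2023391, chr4:135097991-135098050, minus strand) starts at base 2531. Of the other *Trp63* probes, A_52_P338796 and A_55_P1952056, neither has a RefSeq transcript listed, and both were drawn from cDNA clones. The brightest probe stands for each gene below. Exon annotation of mm9 was not used here.

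**Figure D1:**
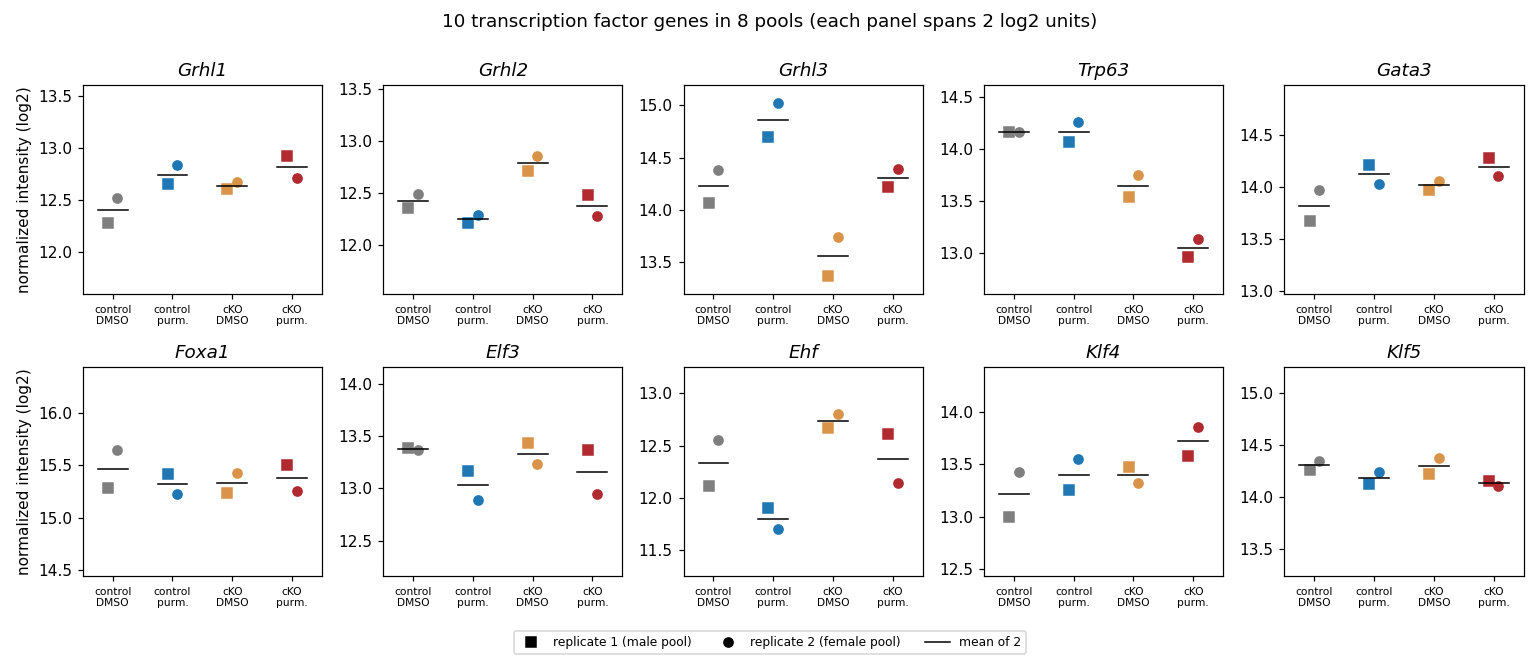
Normalized intensity (log2, vertical axis) of the brightest probe of each of the 10 genes in the 4 groups, with squares for the male pools, circles for the female pools and a line at the mean of 2. *Grhl3* and *Trp63* span the widest ranges, with *Grhl3* between 13.37 and 15.02 and *Trp63* between 12.96 and 14.26, whereas *Klf5* stays between 14.11 and 14.38.

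Few of the 10 genes passed the test in any comparison. With DMSO, 0 of 10 differed between *Pparg-cKO* and control ureters, against 3.61% of the 20523 genes tested (limma, Benjamini-Hochberg adjusted p under 0.05 over all probes tested). At an unadjusted p under 0.05 there were 3, *Grhl3*, *Trp63* and *Grhl2*, against 3232 of the 20523 genes. With purmorphamine, 1 of 10 differed between the genotypes, *Trp63*, which was lower in *Pparg-cKO* ureters, against 2.80% of all genes. Here 3 of 10 had an unadjusted p under 0.05, against 3191 of the 20523 genes. Purmorphamine against DMSO gave 0 of 10 in control ureters (1.15% of all genes). An unadjusted p under 0.05 was reached there by 3 of 10, *Grhl3*, *Grhl1* and *Elf3*, against 4006 of the 20523 genes. In *Pparg-cKO* ureters purmorphamine gave 1 of 10, *Grhl3*, which rose (4.43% of all genes). The unadjusted count in *Pparg-cKO* ureters was 3 of 10, against 4541 of the 20523 genes. The difference of the purmorphamine effect between the genotypes passed for 0 of 10, as it did for 0% of all genes by limma. For this difference 1 of 10, *Trp63*, had an unadjusted p under 0.05, against 677 of the 20523 genes. The shares of the 10 genes by adjusted p rest on 1 gene at most and are not set apart from the background. With 2 pools per group, an adjusted p above the threshold does not show that the groups were alike.

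The selection rule of the study's methods carries no test and takes genes that moved 1.5-fold or more, alike in both replicates, at an intensity above 100. By this rule 1 of the 10 genes differed between the genotypes with DMSO (*Grhl3*, 5.50% of 15423 genes bright enough), 2 with purmorphamine (*Grhl2* and *Trp63*, 6.28% of 15312), 1 by purmorphamine in control ureters (*Grhl3*, 6.45% of 15321) and 1 by purmorphamine in *Pparg-cKO* ureters (*Grhl3*, 8.67% of 15402). *Grhl2* passed through its upstream probe alone.

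**Figure D2:**
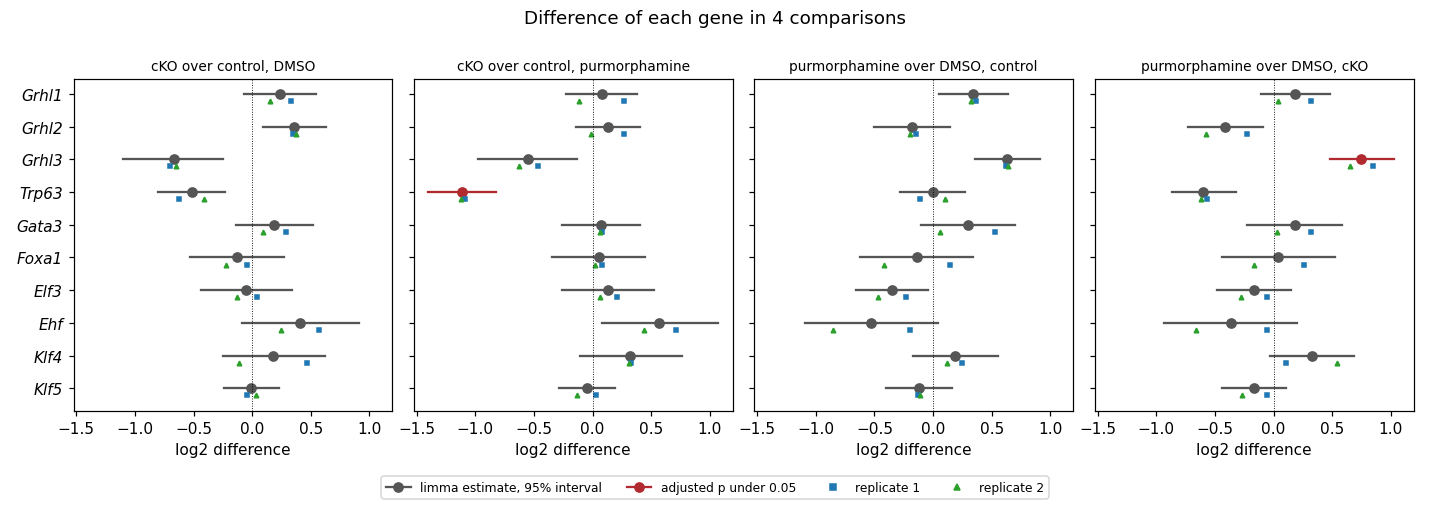
Log2 difference of each gene in the 4 comparisons (horizontal axis), with the limma estimate and its 95% interval, in red where the adjusted p was under 0.05, and the values of replicate 1 and replicate 2 beneath it. *Trp63* at -1.11 between the genotypes with purmorphamine and *Grhl3* at 0.75 for purmorphamine in *Pparg-cKO* ureters are the values that passed.

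*Grhl3*, the grainyhead-like gene of terminal differentiation, rose with purmorphamine in *Pparg-cKO* ureters. The male and female *Pparg-cKO* pools were at 13.37 and 13.74 with DMSO, and at 14.22 and 14.39 with purmorphamine. Both pools were higher with the agonist than either pool without it, a separation that 54.6% of all genes tested showed in this comparison. The rise was 0.75 on the log2 scale, 1.68-fold (SE 0.11, n = 2 arrays, limma adjusted p = 0.037). The male pair gave 0.85 and the female pair 0.65. In control ureters the level was 14.07 and 14.38 with DMSO and 14.70 and 15.02 with purmorphamine, and the groups did not overlap, as was the case for 46.8% of all genes. That difference was 0.63 (SE 0.11), higher in 2 of 2 pairs, with an adjusted p of 0.083 by limma. The purmorphamine effects of the genotypes differed by 0.12 (95% interval -0.27 to 0.51, unadjusted p = 0.46 by limma).

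*Grhl3* was lower in both *Pparg-cKO* pools than in the control pools of the same treatment, but this did not pass the test. The difference was -0.67 with DMSO (SE 0.18, 95% interval -1.10 to -0.25, limma adjusted p = 0.12) and -0.55 with purmorphamine (SE 0.18, limma adjusted p = 0.19), with the same sign in 2 of 2 pairs each time. In the order of the group means, *Pparg-cKO* with DMSO (13.55 ± 0.26, SD, n = 2) came lowest, then control with DMSO (14.23 ± 0.22), *Pparg-cKO* with purmorphamine (14.31 ± 0.12) and control with purmorphamine (14.86 ± 0.23). The pools of the middle pair of groups overlapped, and the other neighbours did not. Such a separation of the genotypes was shown by 42.7% of all genes with DMSO and by 47.6% with purmorphamine.

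The call on *Grhl3* was narrow. Its adjusted p was 0.20 without the male and 0.21 without the female *Pparg-cKO* array (0.65 and 0.85 on the log2 scale, with the remaining array assumed to vary like the control arrays). It was 0.10 with the replicate block, 0.12 with processed signals, 0.14 with median centring and 0.054 with all probes tested, and the direction was the same in all alternatives tried. In the same comparison, 4 of 4 smooth muscle markers had values above 0 without passing the test (median 0.81), and the log2 of their summed intensity was 17.81 to 17.97 with DMSO and 18.60 to 18.82 with purmorphamine. Endothelial markers (1 of 4 higher by the test) summed to 13.73 to 13.84 and 14.68 to 14.86, leukocyte markers (1 of 4 lower) to 16.65 to 16.81 and 16.09 to 16.24, and basal markers (1 of 3 lower) to 17.29 to 17.94 and 16.20 to 16.64. Kidney tubule markers summed to 9.88 to 10.13 and 8.64 to 8.65, and 2 of 4 were lower by the test, *Umod* at -2.25 (limma adjusted p = 0.033) and *Slc12a1* (adjusted p = 0.017), which was not well above background in either pool with purmorphamine (at least 2.45-fold lower). Fibroblast markers (0 of 4 called) summed to 17.57 to 17.72 and 18.10 to 18.12, and fat cell markers (0 of 3 called) to 14.58 to 14.93 and 11.97 to 15.21. The epithelial markers (1 of 6 lower) summed to 17.91 to 18.00 and 17.91 to 17.99. The part of the cell type composition in the change of *Grhl3* was not tested. In whole ureters, more cells of a type and more RNA per cell cannot be told apart, here and in the results that follow.

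The genes whose levels ran most like *Grhl3* over the 8 pools were *Sptlc3*, a subunit of serine palmitoyltransferase in sphingolipid synthesis (Pearson's r = 0.986), *Upk2*, which encodes a uroplakin of the superficial cell plaque (r = 0.984), and *Ermp1*, a metallopeptidase of the endoplasmic reticulum (r = 0.981). These values describe 8 pools that share arrays and groups, and genes chosen in this way have their direction fixed by the choice. *Upk2* was 14.68 and 14.76 in the *Pparg-cKO* pools with DMSO and 15.39 and 15.71 with purmorphamine. Its difference was 0.84, and those of *Sptlc3* and *Ermp1* were 0.85 and 0.61.

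**Figure D3:**
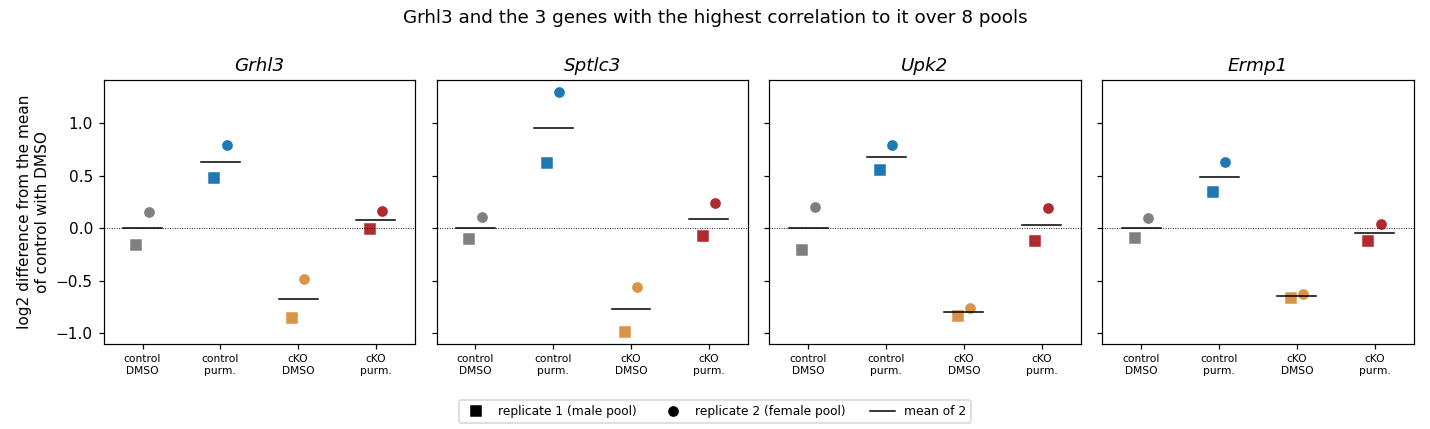
Level of *Grhl3* and of the 3 genes with the highest correlation to it, as log2 difference from the mean of the control pools with DMSO (vertical axis), in the 4 groups, with squares for male and circles for female pools and a line at the mean of 2. In each panel the *Pparg-cKO* pools with DMSO are lowest and the control pools with purmorphamine highest.

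*Trp63*, the gene of basal and intermediate cells, was below the control level in *Pparg-cKO* ureters when both genotypes received purmorphamine. By its brightest probe the control pools were at 14.06 (male) and 14.26 (female), and the *Pparg-cKO* pools at 12.96 and 13.14. The groups did not overlap, as was the case for 47.6% of all genes. The difference was -1.11, 2.16-fold (SE 0.12, n = 2 pools per group, limma adjusted p = 0.012). The male pair gave -1.09 and the female pair -1.12. With DMSO the control pools both read 14.16 and the *Pparg-cKO* pools 13.54 and 13.75, a difference of -0.51 (SE 0.12) that did not pass (limma adjusted p = 0.083).

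Purmorphamine shifted this *Trp63* probe by 0.00 in control ureters (95% interval -0.28 to 0.27) and by -0.60 in *Pparg-cKO* ureters (95% interval -0.87 to -0.32, limma adjusted p = 0.056), lower in 2 of 2 pairs. The difference of these effects was -0.59 (SE 0.15, unadjusted p = 0.011, limma adjusted p = 1). The group means ran from *Pparg-cKO* with purmorphamine (13.05 ± 0.12, SD, n = 2) over *Pparg-cKO* with DMSO (13.64 ± 0.15) to both control groups at 14.16. The control groups overlapped, and the other neighbours did not. Of all genes, 54.6% were likewise apart between the treatments in *Pparg-cKO* ureters, and 42.7% between the genotypes with DMSO.

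The 4 *Trp63* probes did not read alike. Between the genotypes with purmorphamine the differences were -1.11 for the brightest probe, -0.91 (95% interval -1.90 to 0.08) and -0.56 (-1.02 to -0.10) for the 2 cDNA clone probes A_55_P1952056 and A_52_P338796, and -0.07 (-0.49 to 0.35) for the CAG probe. The CAG probe read 10.49 and 10.52 in the control pools and 10.56 and 10.31 in the *Pparg-cKO* pools, which overlapped. A_52_P338796 was dim, with scaled processed signals from the floor of 15 to 45.5, under the intensity of 100 in the study's rule. By these scaled signals, the male and female pairs gave -1.13 and -1.09 for the brightest probe. They gave -0.76 and -1.08 for A_55_P1952056, -0.70 and -1.11 for A_52_P338796, and 0.12 and -0.21 for the CAG probe. In limma, only the brightest probe passed the test. With the mean of all probes of each gene, the *Trp63* difference was -0.66 (limma adjusted p = 0.12). Which *Trp63* transcripts account for the unequal readings was not tested.

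**Figure D4:**
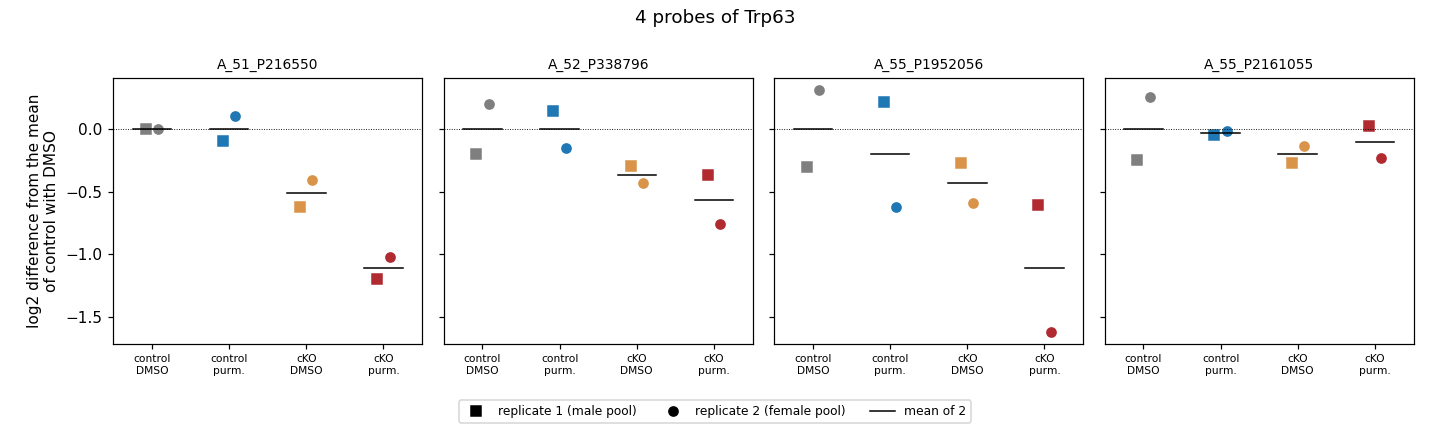
The 4 probes named *Trp63*, each as log2 difference from its own mean in the control pools with DMSO (vertical axis), in the 4 groups, with squares for male and circles for female pools and a line at the mean of 2. The brightest probe A_51_P216550 is lowest in the *Pparg-cKO* pools with purmorphamine, where the CAG probe A_55_P2161055 reads 10.31 to 10.56 against 10.49 to 10.52 in the control pools with purmorphamine.

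The *Trp63* call was lost on leaving out the male *Pparg-cKO* array (-1.02, limma adjusted p = 0.11), the male control array (-1.21, adjusted p = 0.11) or the female control array (-1.01, adjusted p = 0.15), where the remaining pool was assumed to vary like the other groups. It was also lost with the dye as a term (-1.11, adjusted p = 0.085) and with the 4 pools of that treatment alone (-1.11, adjusted p = 0.061). Of the 3 basal keratin genes 0 passed in this comparison, and they differed in sign. *Krt5*, the classical basal keratin, was 16.56 and 16.32 in the control and 16.00 and 15.23 in the *Pparg-cKO* pools with purmorphamine (-0.82, limma adjusted p = 0.21). *Krt14* was at 0.42 (adjusted p = 0.67) and *Krt15* at 0.63 (adjusted p = 0.53), both above 0 in 2 of 2 pairs. The 3 basal markers summed to 16.65 to 16.98 and 16.20 to 16.64. Epithelial markers summed to 18.00 to 18.03 and 17.91 to 17.99, with *Epcam* higher (0.76, adjusted p = 0.03). Endothelial markers (0 of 4 called) summed to 14.20 to 14.28 and 14.68 to 14.86. Fat cell markers (0 of 3 called) summed to 16.19 to 16.44 in the control and to 11.97 to 15.21 in the *Pparg-cKO* pools. The part of these cell types in the *Trp63* difference was not tested.

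The genes with the levels most like *Trp63* over the 8 pools were *Zfp296* (r = 0.979), *Jade1* (r = 0.978), a subunit of a histone acetyltransferase complex, and *Polr3g* (r = 0.975), a subunit of RNA polymerase III. Between the genotypes with purmorphamine their differences were -0.82, -0.52 and -0.94, which follow from the way they were chosen.

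*Grhl2*, the grainyhead-like factor of epithelial junctions and E-cadherin expression, was read by 2 probes. The brightest read 12.36 and 12.49 in control and 12.71 and 12.86 in *Pparg-cKO* pools with DMSO, a difference of 0.36 (SE 0.11, limma adjusted p = 0.19), and 12.21, 12.29, 12.48 and 12.28 with purmorphamine (0.13, adjusted p = 0.68). The upstream probe gave 0.44 (adjusted p = 0.20) and 0.55 (adjusted p = 0.11), higher in 2 of 2 pairs in each treatment. All 4 estimates were above 0 and none passed, but the 2 probes read the same pools and are not independent. By the brightest probe the genotypes overlapped with purmorphamine. With purmorphamine the brightest probe shifted by -0.41 in *Pparg-cKO* ureters (adjusted p = 0.16) and by -0.18 in control ureters (adjusted p = 0.54). Over the 8 pools the level of *Grhl2* had a Pearson's r of -0.82 with that of *Grhl3* and of 0.87 with that of *Ehf*, as a description of pools that share arrays.

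*Grhl1*, the grainyhead-like factor of desmosomal gene expression in the epidermis, read 12.28 and 12.52 in control pools with DMSO and 12.65 and 12.83 with purmorphamine, a difference of 0.34 (SE 0.12, limma adjusted p = 0.22). In *Pparg-cKO* pools it read 12.60 and 12.67 with DMSO and 12.92 and 12.71 with purmorphamine (0.18, adjusted p = 0.46). Between the genotypes the differences were 0.24 with DMSO and 0.08 with purmorphamine, within an interval of -0.23 to 0.38 for the latter. The levels of *Grhl1* ran most like those of *Eml2* (r = 0.981), *Ccni* (r = 0.978) and *Inadl* (r = 0.972).

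The brightest probes of both ETS factors read lower with purmorphamine in every pair, and neither passed the test. *Ehf* was 12.11 and 12.55 in control pools with DMSO and 11.90 and 11.70 with purmorphamine, and 12.67 and 12.80 in *Pparg-cKO* pools with DMSO and 12.61 and 12.14 with purmorphamine. The purmorphamine difference was -0.53 (SE 0.22, limma adjusted p = 0.29) in control and -0.36 (adjusted p = 0.44) in *Pparg-cKO* ureters. It was -0.20 and -0.06 in the male pairs against -0.85 and -0.66 in the female pairs, so that the pairs of one sex and dye orientation carried most of it. Between the genotypes *Ehf* differed by 0.41 with DMSO (adjusted p = 0.45) and by 0.57 with purmorphamine (95% interval 0.08 to 1.07, adjusted p = 0.25), higher in *Pparg-cKO* ureters in 2 of 2 pairs each time. The upstream probe of *Ehf* gave 0.37 and 0.59 between the genotypes and -0.51 and -0.28 with purmorphamine, close to the brightest probe.

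*Elf3*, the ETS factor downstream of PPARG, read 13.39 and 13.37 in control pools with DMSO and 13.17 and 12.89 with purmorphamine, a difference of -0.35 (SE 0.12, limma adjusted p = 0.23). In *Pparg-cKO* pools it read 13.43 and 13.23 with DMSO and 13.37 and 12.95 with purmorphamine (-0.17, adjusted p = 0.53). Its difference between the genotypes was -0.05 with DMSO, with an interval of -0.44 to 0.34, and 0.13 with purmorphamine, with an interval of -0.26 to 0.52. The nearest genes by level were 1600010M07Rik (r = 0.985), C030005K06Rik (r = 0.963) and *Pim1* (r = 0.954) for *Elf3*, and *Fubp1* (r = 0.990), *Ptbp3* (r = 0.989) and *Trim30d* (r = 0.984) for *Ehf*.

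*Gata3* and *Foxa1*, the factors that act with PPARG in luminal differentiation, did not pass the test between the genotypes. *Gata3* read 13.67 and 13.97 in control and 13.97 and 14.06 in *Pparg-cKO* pools with DMSO, a difference of 0.19 (95% interval -0.14 to 0.52, limma adjusted p = 0.63). With purmorphamine it read 14.21 and 14.03 in control and 14.28 and 14.10 in *Pparg-cKO* pools, a difference of 0.07 (95% interval -0.26 to 0.40, limma adjusted p = 0.89). *Foxa1* read 15.28 and 15.65 in control and 15.24 and 15.43 in *Pparg-cKO* pools with DMSO, a difference of -0.13 (95% interval -0.53 to 0.27, limma adjusted p = 0.81). Its groups overlapped in this comparison, and with purmorphamine the difference was 0.05 (95% interval -0.35 to 0.45). For both genes the intervals leave out a change of 1 log2 unit in either direction.

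The purmorphamine effect on *Gata3* was 0.30 in control (limma adjusted p = 0.40) and 0.18 in *Pparg-cKO* ureters (adjusted p = 0.63), where the male pairs read 0.53 and 0.32 and the female pairs 0.06 and 0.03. That on *Foxa1* was -0.14 and 0.04, above 0 in both male pairs (0.14 and 0.26) and below 0 in both female pairs (-0.42 and -0.17). These pairs share sex as well as dye orientation. *Gata3* ran most like *Kat6b* (r = 0.981), *Trpm7* (r = 0.974) and *Ccdc136* (r = 0.968), and *Foxa1* most like *Pcid2* (r = 0.942), *Dhx38* (r = 0.923) and Gm16853 (r = 0.923).

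The Krüppel-like genes passed in no comparison. *Klf5*, a factor of proliferating epithelium that the bladder urothelium needs to mature, lay between 14.11 and 14.38 in all 8 pools, the narrowest range of the 10 brightest probes. Its differences between the genotypes were -0.01 (95% interval -0.24 to 0.23) with DMSO and -0.05 (-0.29 to 0.19) with purmorphamine. *Klf4*, a factor of the epidermal barrier, read 13 and 13.43 in control and 13.47 and 13.32 in *Pparg-cKO* pools with DMSO, which overlapped, and 13.25, 13.55, 13.58 and 13.86 in the same order with purmorphamine (0.32, limma adjusted p = 0.48). The purmorphamine effect on *Klf4* was 0.19 in control and 0.33 in *Pparg-cKO* ureters, above 0 in all pairs, with limma adjusted p of 0.56 and 0.28. *Klf4* ran most like *Zfp39* (r = 0.980), *Gkap1* (r = 0.977) and *Dpt* (r = 0.970), and *Klf5* most like *Acat2* (r = 0.968), *Ythdc2* (r = 0.954) and *G3bp1* (r = 0.951).

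Among the paralogues of the 10 genes, 29 of 32 could be tested, and single genes of them passed. *Elf5*, an ETS factor of glandular and lung epithelia and closest to *Ehf* and *Elf3*, was 8.95 and 8.77 in control and 10.03 and 10.44 in *Pparg-cKO* pools with DMSO. It was higher in *Pparg-cKO* ureters by 1.37 with DMSO (limma adjusted p = 0.01) and by 1.17 with purmorphamine (adjusted p = 0.023). *Klf14* rose with purmorphamine in *Pparg-cKO* ureters by 2.66 (adjusted p = 0.043), from 7.78 and 7.92 to 9.54 and 11.48, and read 7.80 and 8.47 with DMSO against 10.57 and 11.09 with purmorphamine in control pools, where it did not pass. With purmorphamine 0 of the 29 passed in control ureters by limma. An unadjusted p under 0.05 was reached by 8 of the 29, against 4006 of the 20523 genes. *Trp73*, the sister of *Trp63*, differed by 1.21 with DMSO (adjusted p = 0.18), and its pairs read 0.30 (male) and 2.12 (female). The median of the list was between -0.06 and 0.12 in the 4 comparisons, against -0.004 to 0.015 over all genes.

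Of 32 other transcription factor genes of urothelial or squamous epithelium, 31 were tested, and 3 passed between the genotypes with DMSO. *Pax8*, a factor of the nephric lineage, was 9.46 and 8.95 in control and 11.75 and 11.17 in *Pparg-cKO* pools with DMSO, higher by 2.25 (limma adjusted p = 0.013), and higher by 2.13 with purmorphamine (adjusted p = 0.022). *Tfap2a*, a factor of epidermal fate, was higher by 0.69 with DMSO (adjusted p = 0.0497). *Cebpa*, a factor of adipocyte and epithelial differentiation, was lower by the test, at -1 with DMSO (adjusted p = 0.014) and -1.15 with purmorphamine (adjusted p = 0.015). The 3 fat cell markers were below 0 in the same comparisons (medians -1.73 and -2.63), and 0 were called. With DMSO they summed to 16.28 to 16.76 in control and 14.58 to 14.93 in *Pparg-cKO* pools. The part of fat cells in the *Cebpa* results was not tested. With purmorphamine, *Bhlhe40*, a factor of hypoxia and circadian responses, fell by 1.44 in control (adjusted p = 0.035) and by 1.07 in *Pparg-cKO* ureters (adjusted p = 0.03), and *Pax8* fell by 0.74 in *Pparg-cKO* ureters (adjusted p = 0.047). Beside *Pax8*, 2 of the 4 kidney tubule markers were higher in *Pparg-cKO* ureters with DMSO, *Umod* (2.37) and *Slc12a1* (1.40), each well above background in 1 of 2 control pools. With purmorphamine in *Pparg-cKO* ureters the same markers fell, *Umod* by 2.25. Their part in the results for *Pax8* was not tested.

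Lists of genes that mark the cell states these factors are known for were read in the same way. Of 10 superficial cell genes 7 were lower in *Pparg-cKO* ureters with DMSO (median -1.39) and 2 with purmorphamine (median -0.84). From these arrays the study had reported several of them, among them *Krt20*, *Hsd17b2* and *Sptssb*, as lower without *Pparg* and partly regained with purmorphamine. The directions of this list were thus largely known when it was chosen, and its counts are no independent result. With purmorphamine in control ureters 0 passed by limma (median 0.88). There 9 of 10 had an unadjusted p under 0.05, against 4006 of the 20523 genes. In *Pparg-cKO* ureters 9 rose with purmorphamine (median 1.58). Leaving out each array gave 0 to 4, 0 to 1, 0 to 4 and 4 to 9 in the same order, with 1 for the first without the male control array, 0 without the female one and 4 without either *Pparg-cKO* array, and 4 for the last without the female *Pparg-cKO* array. The largest values were those of *Krt20*, a superficial cell keratin, at -3.70 and -2.42 between the genotypes and 2.43 with purmorphamine in *Pparg-cKO* ureters. *Grhl3* at -0.67, -0.55, 0.63 and 0.75 had the sign of this list's median in all 4 comparisons, of which those with a common pool are not independent. The share of all genes with the same signs is not given, so this match is a description only. Of the 17 squamous and stress genes tested, 2 were higher in *Pparg-cKO* ureters with DMSO, the keratins *Krt17* (3.57) and *Krt4* (1.66). With purmorphamine *Krt4* was higher (2.24) and *Ivl*, a cornified envelope gene, lower (-1.22). In fetal control ureters the study found strong *Ivl* expression in superficial and intermediate cells, so that *Ivl* is not a squamous gene alone here. Purmorphamine lowered *Krt4* in control ureters (-1.71) and *Krt6a* (-1.69), *Tgm1* (-1.53) and *Krt4* (-1.12) in *Pparg-cKO* ureters, where the median of the list was -1.48. The female pair gave a median of -2.05 and the male pair -0.48, and without the female *Pparg-cKO* array 0 of the 17 genes were called. Without the male one, 13 were. Between the genotypes with DMSO the list had a median of 1.35, with 0.21 for the male and 2.06 for the female pair, and without the female *Pparg-cKO* array it was 0.27, with 1 gene called.

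Genes known as targets of grainyhead-like factors or of p63 mostly did not pass. Of 14 tested, the single gene that did was *Cldn3*, a tight junction claudin that GRHL factors activate, higher in *Pparg-cKO* ureters by 4.02 with DMSO (limma adjusted p = 0.013) and by 3.27 with purmorphamine (adjusted p = 0.032). It read 8.63 and 6.87 in control and 11.80 and 11.74 in *Pparg-cKO* pools with DMSO. It fell by 1.73 with purmorphamine in *Pparg-cKO* ureters (adjusted p = 0.043). The calls on paralogues, other transcription factors, squamous genes and targets, 22 over the 4 comparisons, were each lost on leaving out at least 1 of the 4 arrays. The median over the list was 0.23, 0.04, -0.03 and -0.36 in the comparisons of the genotypes with DMSO and with purmorphamine and of the treatments in control and *Pparg-cKO* ureters.

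**Figure D5:**
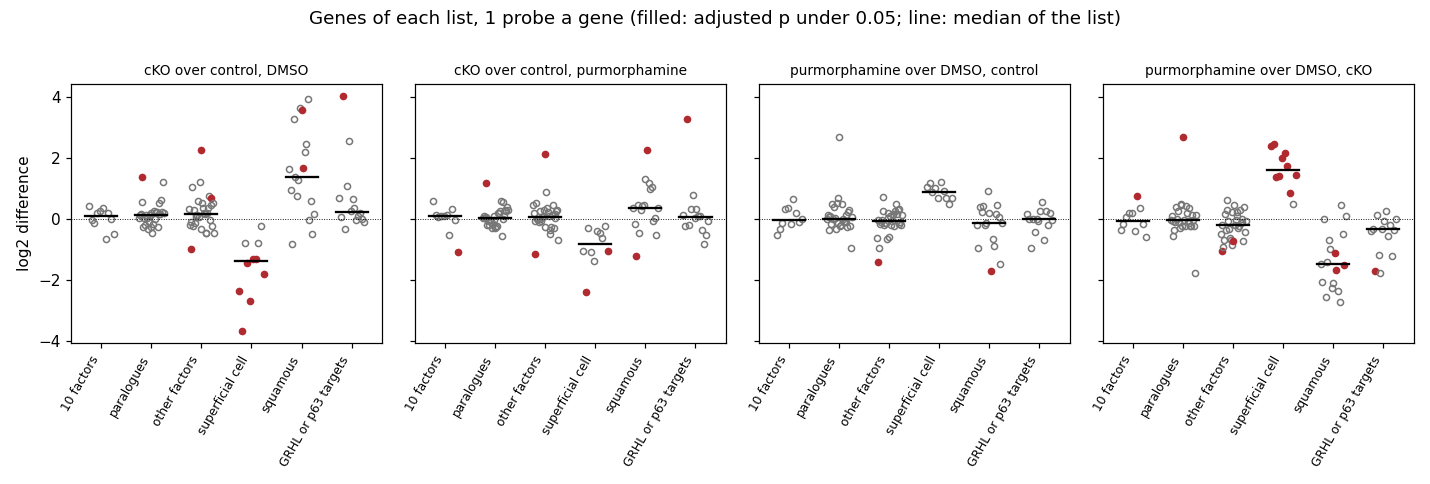
Log2 difference (vertical axis) of the 10 factors and of each list of related genes in the 4 comparisons, with 1 point per gene, filled where the limma adjusted p was under 0.05, and a line at the median. The 10 factors lie between -1.11 and 0.75, and the superficial cell list reaches a median of 1.58 with purmorphamine in *Pparg-cKO* ureters.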

How the data were processed

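RNA of 8 sex-sorted pools was hybridised to 4 two-colour Agilent arrays with 4 spots per probe. Per the file headers, Feature Extraction (12.2.0.7, and 10.7.3.1 in the submitters' processing notes) gave the mean and local background intensity of each spot. The deposited processed intensity was background-subtracted and dye-normalized by that software, and the deposited log10 ratio, red over green, was used to check dye directions. The score deposited for the series is a fold change between the treatments of each array, negative for a decrease, with unstated normalization.

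Mean intensities were corrected by normexp (offset 50), normalized by loess within and Aquantile between arrays and averaged over spots with limma 3.58.1 (R 4.3.3, data.table, version 1.17.8). The genotype contrasts used a separate-channel fit (intraspot correlation 0.07 on 4000 probes, kept where an array was left out) and treatments by log ratios, over all groups. Tested were 27466 probes with at least 2 spots well above background in each pool of 1 or more groups, with Benjamini-Hochberg adjustment. The fold and intensity rule used processed signals scaled to a 75th percentile of 1500 with a floor of 15, and a gene counted through any probe. The fits were checked on simulated data. No source used here says how many litters a pool holds, so p-values cover the spread between these pools only.

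The 10 genes and the lists were chosen with earlier results of these data known. Named were all members with every probe, up to 6 called genes per list and comparison that moved alike in both pairs, and the 3 genes with the highest Pearson's r to each member. Alternatives were other normalizations, filters, probe averaging, blocks for replicate number and dye, subsets of pools, omission of each array, the study's rule and the deposited fold changes.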

Additional observations from a re-analysis of the deposited data

Results flagged for a closer look

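*Foxa1* differed in the direction of its genotype effect between the treatments within the pairs of the same sex. Each *Pparg-cKO* pool was lower than the control pool of its sex with DMSO (-0.04 and -0.22, mean -0.13). With purmorphamine each was higher (0.08 and 0.02, mean 0.05). The groups overlapped in both treatments, and with processed signals the pairs with purmorphamine read -0.06 and 0. The difference between the treatments was 0.18 with an unadjusted p of 0.52 by limma and did not pass the test.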

How the results depend on the processing

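The directions of *Grhl3* and *Trp63* in the comparisons that they passed were the same in all alternatives run. The call on *Trp63* (1 gene, with purmorphamine between the genotypes) became 0 with the 4 pools of that treatment alone, with dye as a term and with the mean of all probes of a gene, and 2 by the study's rule. It became 0 to 1 on leaving out each array. The call on *Grhl3* (1 gene, purmorphamine in *Pparg-cKO* ureters) became 0 with all probes tested (adjusted p = 0.054), median centring (0.14), processed signals (0.12) and the replicate block (0.10), and 0 to 1 without each array. By the study's rule 1 gene was selected between the genotypes with DMSO and 1 for purmorphamine in control ureters, against 0 by limma. The causes were not tested.

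The replicate numbers share sex and dye only, and deviations of same-numbered pools correlated between -0.15 and 0.47. The replicate block left 0 genes of all for purmorphamine, against 237 in control and 910 in *Pparg-cKO* ureters. Over all settings the calls among all genes ranged from 31 to 746 (740 as reported) and 17 to 595 (575) between the genotypes with DMSO and purmorphamine, 0 to 515 and 0 to 1062 for purmorphamine, and 0 to 40 for the difference of the effects, where the 40 came without the male *Pparg-cKO* array.

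Signs turned in 40 values of 20 effects, all at most 0.18 in size. With median centring these were the difference of purmorphamine effects for *Ehf* (-0.06), *Elf3* (-0.02), *Grhl3* (-0.04) and *Klf4* (-0.07), the genotype effect with DMSO for *Elf3* (0.05) and *Klf5* (0.08) and with purmorphamine for *Foxa1* (-0.02), *Gata3* (-0.02) and *Grhl1* (-0.03), and the purmorphamine effect for *Foxa1* in *Pparg-cKO* (-0.03) and for *Grhl2* (0.02) and *Trp63* (0.12) in control ureters. With processed signals they were *Foxa1* between the genotypes with purmorphamine (-0.03) and *Trp63* in control ureters (0.00), and with the replicate block *Foxa1* in control ureters (0.11). Without each array, the genotype effect with DMSO ranged from -0.15 to 0.05 (*Elf3*), -0.32 to 0.05 (*Foxa1*), -0.03 to 0.40 (*Klf4*) and -0.09 to 0.08 (*Klf5*). That with purmorphamine ranged from -0.08 to 0.34 (*Elf3*), -0.07 to 0.17 (*Foxa1*), -0.02 to 0.16 (*Gata3*), -0.03 to 0.18 (*Grhl1*) and -0.10 to 0.00 (*Klf5*). The purmorphamine effect ranged from -0.42 to 0.14 in control and -0.17 to 0.26 in *Pparg-cKO* ureters for *Foxa1* and from -0.11 to 0.10 in control ureters for *Trp63*. The difference of the effects ranged from -0.16 to 0.49 (*Ehf*), -0.10 to 0.46 (*Foxa1*), -0.36 to 0.11 (*Gata3*), -0.08 to 0.36 (*Klf4*) and -0.15 to 0.06 (*Klf5*). All probes of the 10 genes were well above background, and with 2 pools per group the number of arrays limits the precision. Lists were read without each array as a choice made after seeing the data.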
